A study of Mus musculus with 6 samples.

Results

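In whole mouse brain RNA, 7 genes known from the nasal and olfactory mucosa were followed across 6 libraries: the BPI-fold genes Bpifb3, Bpifb4, Bpifa6, Bpifb9a and Bpifb9b, and the olfactory sensory neuron genes Omp and Cnga2. They were taken by symbol from the 55450 genes of the count tables, and all 7 had at least 1 read. The libraries are 3 from wild-type mice (WT) and 3 from mice lacking TRMT1L (TRMT1L KO, hereafter KO), a homolog of the tRNA methyltransferase TRMT1. The labels call them biological triplicates of total brain and give no strain, sex, age, knockout allele or dissection detail. The 7 genes were chosen by their read counts, which for the BPI-fold genes stood out in single libraries of either group. The counts of all 7 are therefore a description and carry no test. Counts are listed in the order of libraries 1, 2 and 3 of each group.

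BPI-fold proteins are secreted lipid-binding proteins related to the bactericidal/permeability-increasing protein BPI. Many are made by epithelia and glands of the mouth, nose and airways, and Bpifb3 and Bpifb4 are known from the olfactory mucosa, while Bpifb9a and Bpifb9b encode the mouse forms of vomeromodulin, a nasal gland secretion. Omp encodes the olfactory marker protein of mature olfactory sensory neurons, and Cnga2 encodes the main subunit of the cyclic nucleotide-gated channel that opens when those neurons detect an odour. These neurons sit in the nasal epithelium beside sustentacular (supporting) cells and Bowman's glands, and their axons run to the olfactory bulb of the brain.

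Counts in genes ranged from 31201119 to 36145961 per library. Trmt1l, the targeted gene, averaged 34.4 ± 1.26 in WT libraries and 2.87 ± 0.171 in those of KO, in CPM, a count scaled to library size with TMM factors (SD, n = 3 each), a log2 fold change of -3.58 (SE 0.0813; adjusted p = 6.95e-10 in edgeR's quasi-likelihood test). Neuronal and glial genes were abundant in every library, with 54737 to 60496 counts of the synaptic gene Snap25. KO library 3 stood apart in a gene unrelated to the nose, named here after its values were seen: Usp9y, a Y-linked gene, had 33 counts there and 0 in the other 5 libraries. The part of this difference in the results below was not tested.

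Bpifb9a and Bpifb9b are near-copies of each other, which bears on how their reads can be counted. Their transcripts Bpifb9a-201 and Bpifb9b-201 matched at 99.3% of 2065 aligned bases, with 14 mismatches, 13 of them in the coding part, and the longest stretch without a difference was 465 bases. The coding stretch of 90 bases with the most mismatches (3) is shown with the differing bases in capitals. It spans bases 128 to 217 of each GENCODE M21 transcript.
Bpifb9a: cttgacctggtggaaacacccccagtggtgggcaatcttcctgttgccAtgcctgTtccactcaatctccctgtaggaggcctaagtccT
Bpifb9b: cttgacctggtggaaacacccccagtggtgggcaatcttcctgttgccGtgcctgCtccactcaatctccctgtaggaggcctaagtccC

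Of all windows of 100 bases along Bpifb9b-201, 53.8% also occur in Bpifb9a, and of windows of 50 bases 71.4% do. Reads that map to several places were left out of the deposited counts, so counts of this pair are incomplete and their division between both genes is uncertain. The longest coding transcript of each of the other 5 genes shared no window of 50 bases with another gene.

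The copies also extend upstream of the genes. The 250 bases before the RefSeq start (GRCm38.p6) lie at chr2:154257629-154257878 for Bpifb9a and chr2:154306994-154307243 for Bpifb9b, both on the plus strand. They are shown 5′ to 3′ because both genes had their highest count in the same library. Capitals mark the bases that differ where the windows align.
Bpifb9a upstream: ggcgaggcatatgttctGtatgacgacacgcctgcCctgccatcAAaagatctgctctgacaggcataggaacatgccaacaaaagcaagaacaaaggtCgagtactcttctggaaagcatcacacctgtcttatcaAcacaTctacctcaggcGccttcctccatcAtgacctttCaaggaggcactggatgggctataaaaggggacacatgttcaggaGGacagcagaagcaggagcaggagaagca
Bpifb9b upstream: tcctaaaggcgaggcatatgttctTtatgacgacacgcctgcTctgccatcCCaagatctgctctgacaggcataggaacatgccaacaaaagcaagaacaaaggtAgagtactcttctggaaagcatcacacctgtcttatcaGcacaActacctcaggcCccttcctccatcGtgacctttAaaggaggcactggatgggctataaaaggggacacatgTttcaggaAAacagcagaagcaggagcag

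The windows matched at 230 of 242 aligned bases, with 12 mismatches and 1 gap base. Both hold the TATA box letters TATAAA, searched on both strands, which 12.4% of 32851 RefSeq windows of this length hold. In the table, 6 of the 7 genes had a window, and none of their 7 windows held the Olf1/EBF motif of olfactory neuron genes (0.779% of all windows) or the homeodomain letters TAATTA (4.84%).

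All 5 BPI-fold genes lie on the plus strand of chromosome 2 in 1 cluster of 13 annotated Bpif genes, which runs over 445.6 kb from Bpifb2 at 153875045 to the end of Bpifb9b at 154320646 (GRCm38). Within this cluster the genes did not share 1 pattern across libraries. Bpifb3, Bpifb4 and Bpifa6 were highest in WT library 3, and Bpifb9a and Bpifb9b were highest in KO library 3.

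Bpifb3 (ENSMUSG00000068008.8, 153918230 to 153932996) had 0, 0 and 105 counts in WT and 2, 0 and 11 in KO. WT library 3 therefore held 89.0% of its counts, at 3.19 CPM, 10.5 times the level in KO library 3 (exact 95% interval 5.63 to 21.6, counting error alone, as for all such intervals below). Bpifb4 (ENSMUSG00000074665.10, 153938212 to 153964101) had 8, 3 and 123 counts in WT and 2, 0 and 22 in KO. Its level in WT library 3, 3.74 CPM, was 6.14 times that in KO library 3 (3.88 to 10.2). For both genes WT library 3 was highest and KO library 3 second, and the groups overlapped.

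Bpifa6 (ENSMUSG00000078998.3, 153974945 to 154000495) was the least counted of the 7. Its counts were 0, 1 and 16 in WT and 0, 1 and 0 in KO, so WT library 3 held 88.9% of them. Unlike Bpifb3 and Bpifb4, Bpifa6 had no read in KO library 3, where a count of 0 allows up to 0.0830 CPM (3 counts).

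Bpifb9b (ENSMUSG00000067996.5, 154307227 to 154320646) reached the highest count of the 7. It had 4, 0 and 23 counts in WT and 3, 0 and 1072 in KO. KO library 3 stood at 29.7 CPM, 42.4 times WT library 3 (28.1 to 67.2), and held 97.3% of all counts of the gene. Its near-copy Bpifb9a (ENSMUSG00000067998.11, 154257854 to 154271245) had 0, 0 and 6 counts in WT and 0, 0 and 217 in KO. KO library 3 was again highest, at 6.004 CPM, 32.9 times WT library 3 (14.9 to 90.7). Both genes thus rested on 1 KO library, with WT library 3 second and KO libraries 1 and 2 at 3 counts or fewer.

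As group means, Bpifb9b stood at 9.92 ± 17.1 CPM in KO and 0.270 ± 0.376 CPM in WT (SD, n = 3). Bpifb4 stood at 0.222 ± 0.336 CPM in KO and 1.35 ± 2.07 CPM in WT. In both cases the SD of the higher group exceeded its mean, and the groups overlapped.

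**Figure D1:**
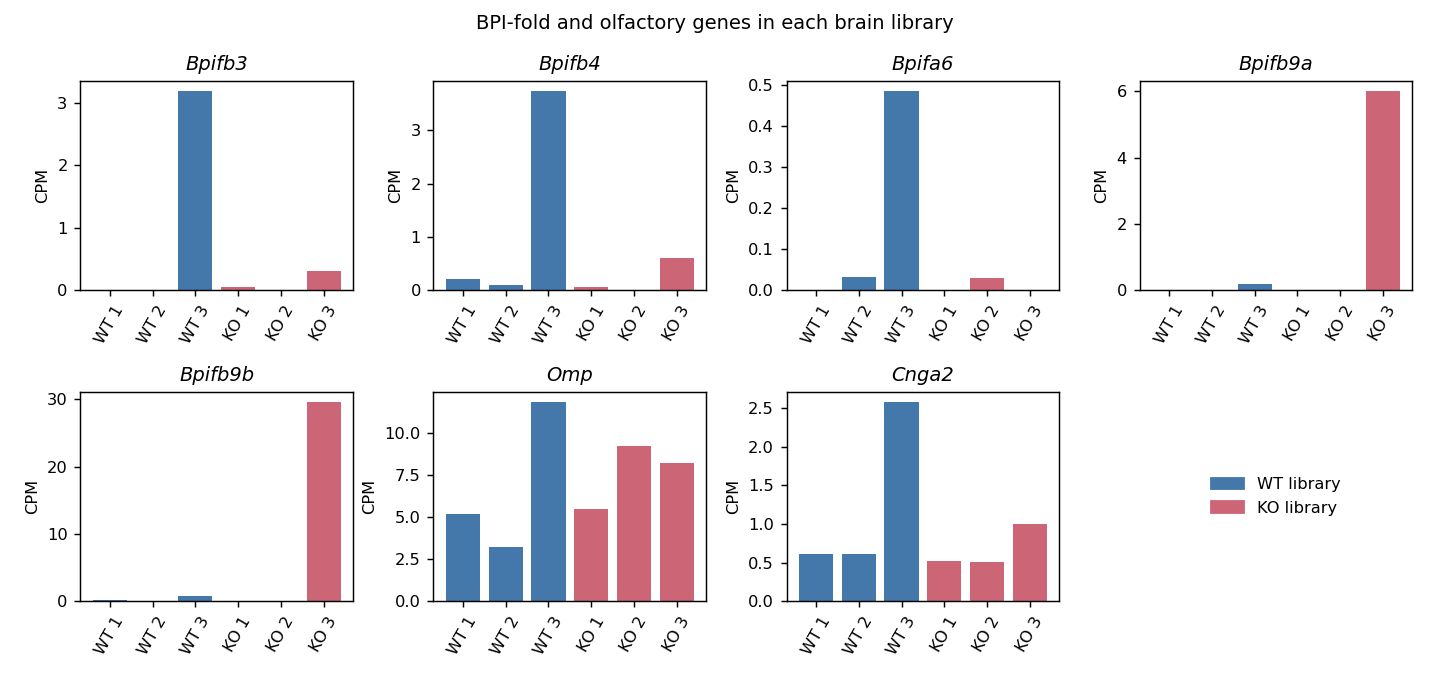
Abundance in CPM (vertical axes, each from 0 and with its own range) of the 7 genes in the 3 WT (blue) and 3 KO (red) libraries, 1 bar per library. Bpifb3, Bpifb4 and Bpifa6 peak in WT library 3, Bpifb9a and Bpifb9b in KO library 3 (6.004 and 29.7 CPM), while Omp and Cnga2 have reads in every library.

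The rest of the cluster was examined for the same library differences. Bpifa1, which encodes an abundant secreted protein of the upper airways, had 3, 0 and 52 counts in WT and 1, 6 and 82 in KO. Bpifb6, next to Bpifb3, had 3, 1 and 31 counts in WT and 1, 3 and 15 in KO. Both were highest in WT library 3 and KO library 3 but in opposite order. Bpifb5, the neighbour of Bpifb9a, had 11 counts in KO library 3 and 0 to 4 in the others.

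Other cluster genes did not show these peaks. Bpifb1 had 1 to 6 counts, Bpifb2 1 to 4 and Bpifa5 1 to 4, Bpifa2 had 1 read in all and Bpifa3 had 0. Outside the cluster, the lipid transfer genes Pltp (1555 to 2177 counts) and Lbp (149 to 209 counts) were present in all 6 libraries. Lbp and Pltp were the 2 of 12 further BPI family genes with enough counts for the genotype test, and neither passed it, as 0.00942% of all genes tested did.

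**Figure D2:**
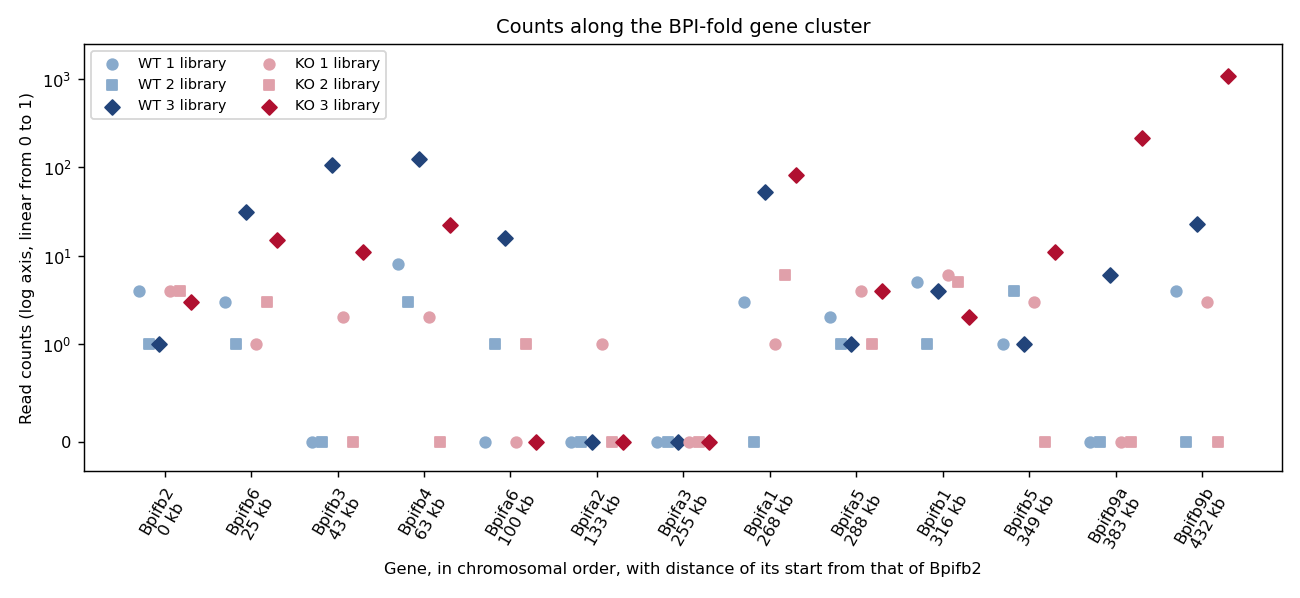
Read counts (vertical log axis, linear from 0 to 1) of the 13 Bpif genes in chromosomal order, labelled with the distance in kb of each start from that of Bpifb2, with 1 symbol per library. WT library 3 (dark blue diamonds) leads at Bpifb6, Bpifb3, Bpifb4 and Bpifa6, and KO library 3 (dark red diamonds) at Bpifa1, Bpifb5, Bpifb9a and Bpifb9b.

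Omp and Cnga2 differed from the BPI-fold genes in having reads in all libraries. Omp (ENSMUSG00000074006.3, chromosome 7 from 98143359 to 98145502, minus strand) had 190, 102 and 391 counts in WT and 190, 311 and 297 in KO. WT library 3 was highest at 11.9 CPM and KO library 2 second at 9.24 CPM, a ratio of 1.29 (1.11 to 1.497). Omp lies within the span of Capn5 on the same strand and can collect reads of unspliced Capn5 RNA, and Capn5 itself ranged from 1447 to 1702 counts. The order of Omp, with WT library 2 lowest at 3.25 CPM, then WT library 1 and KO library 1 at 5.22 and 5.47 CPM, KO library 3 at 8.22 CPM, KO library 2 and WT library 3, did not follow genotype.

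Cnga2 (ENSMUSG00000005864.7, X chromosome from 71991849 to 72010218, plus strand) had 22, 19 and 85 counts in WT and 18, 17 and 36 in KO. WT library 3, at 2.58 CPM, lay 2.59 times above KO library 3 at 0.996 CPM (1.74 to 3.94). The other 4 libraries were close together, between 0.505 and 0.606 CPM. KO library 2, second for Omp, was thus among the low libraries for Cnga2.

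These were the 2 of the 7 genes that passed the filter on low counts. Omp averaged 6.79 ± 4.52 CPM in WT and 7.64 ± 1.95 in KO, and Cnga2 averaged 1.26 ± 1.14 CPM in WT and 0.673 ± 0.280 in KO (SD over 3 libraries). Their fitted log2 differences, KO over WT, were 0.17 (SE 0.356) for Omp and -0.89 (SE 0.531) for Cnga2. Without WT library 3 these became 0.84 and 0.16, and without WT library 2 that of Omp became -0.16. The direction of both differences thus depended on 1 WT library. WT and KO overlapped for all 7 genes, while 14.4% of all genes tested had groups that did not overlap.

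Levels of different genes were compared per kb of exon, within 1 library. In WT library 3 Omp stood at 5.54 CPM per kb, Bpifb3 at 1.70, Bpifb4 at 1.20, Cnga2 at 0.835 and Bpifb9b at 0.338 CPM per kb. In KO library 3 the first place went to Bpifb9b at 14.3 CPM per kb, followed by Omp at 3.83, Bpifb9a at 2.64, Cnga2 at 0.322 and Bpifb4 at 0.195 CPM per kb. The pair Bpifb9a and Bpifb9b is undercounted in this order to an unknown extent.

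Other markers of the olfactory mucosa were then read in the same libraries, from lists of cell type markers. Sustentacular cells are known for detoxifying enzymes, and their markers followed the same libraries as Bpifb3 and Bpifb4. All 8 sustentacular genes with at least 10 counts were highest in WT library 3, and for 7 of them KO library 3 was second. Over all 27153 genes with at least 10 counts, 16.2% were highest in WT library 3, and 5.68% had WT library 3 and KO library 3 as their top pair. Cyp2a5, a nasal and hepatic cytochrome P450, had 10, 9 and 500 counts in WT and 10, 7 and 209 in KO. Cyp2g1, a P450 of the olfactory mucosa, had 0, 1 and 260 counts in WT and 0, 0 and 107 in KO.

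The sustentacular list summed to 2.31, 2.33 and 38.5 CPM in WT and to 3.25, 2.35 and 16.2 CPM in KO. Sec14l3 (24, 29 and 210 counts in WT, 29, 16 and 103 in KO) and Cbr2 (23, 15 and 117 in WT, 29, 32 and 51 in KO) had reads in all 6 libraries. Cyp1a2 and Sult1c1 were at 0 in WT libraries 1 and 2 and in KO libraries 1 and 2, with 28 and 27 counts in WT library 3 and 16 and 21 in KO library 3. Ugt2a1 was at 0 in all libraries and Ugt2a2 had 1 read, but these genes overlap, and reads in several genes were not counted.

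Gland markers were split between both libraries as the BPI-fold genes were. Muc5b, a gel-forming mucin, had 2, 2 and 121 counts in WT and 1, 0 and 46 in KO. Scgb1c1, a secretoglobin, had 59 counts in WT library 3, 15 in KO library 3 and 0 in the other 4. The odorant-binding protein genes Obp1a, Obp1b and Obp2a went the other way. Obp1a had 6, 0 and 1 counts in WT and 0, 0 and 42 in KO, and Obp1b had 18 counts in KO library 3 and 0 elsewhere. Obp2a had 13 counts in KO library 3 and 0 to 2 in the others. Obp2b had reads in all 6 libraries, with 3, 1 and 8 counts in WT and 7, 4 and 11 in KO. Of the 7 gland genes with at least 10 counts, 5 were highest in KO library 3 and 2 in WT library 3. Over all genes with at least 10 counts these shares were 18.6% and 16.2%. Among the 5, Obp2b and Lcn11 rest on few reads, Lcn11 with 4 counts in WT library 1, 10 in KO library 3 and 0 elsewhere. Lcn3 and Lcn4 were at 0 in all 6 libraries.

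Genes of olfactory sensory neurons did not share 1 pattern. Several that the brain also uses were abundant in all libraries: Gnal, the olfactory G protein alpha subunit, had 7586 to 8778 counts, Adcy3, the olfactory adenylyl cyclase, 1919 to 2323, Pde1c 1886 to 2723 and Ric8b 2110 to 2554. As for Cnga2, WT library 3 was first and KO library 3 second for 5 of the 17 genes of this list (Gfy, Umodl1, Stoml3, Cnga4 and Rtp2). Gfy had 8, 6 and 133 counts in WT and 12, 18 and 71 in KO, and Umodl1 had 17, 18 and 144 in WT and 15, 11 and 89 in KO. Stoml3, an olfactory cilium protein gene, had 51, 23 and 175 counts in WT and 39, 72 and 81 in KO. The channel subunits that pair with Cnga2 were also highest in WT library 3, Cnga4 at 65 counts against 27 to 48 elsewhere and Cngb1 at 96 against 21 to 60. Other genes differed from this, such as Kirrel2 with its highest level in KO library 2 (6.83 CPM) and Ano2 with its highest in KO library 1 (9.09 CPM) and its lowest in KO library 3 (5.34 CPM). In all, 8 of 17 genes of this list were highest in WT library 3, 6 in KO library 2 and 0 in KO library 3. Over all genes with at least 10 counts, the shares highest in these libraries were 16.2%, 19.9% and 18.6%. Of 5 genes of immature olfactory neurons with at least 10 counts, 4 were highest in WT library 3, a list that summed to 58.0 CPM there and to 43.1 to 46.6 CPM in the others, and that other brain cells share in part.

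KO library 2, second for Omp, was not raised in sustentacular or gland markers. It was the highest library for 6 of 7 olfactory bulb markers, beside 19.9% of all genes with at least 10 counts. The bulb list summed to 188 CPM there and to 120 to 159 CPM in the other 5. Of these sums Calb2, highest in KO library 3, gave 77.6 to 98.3 CPM. Eomes, a gene of bulb projection neurons, had 300, 163 and 301 counts in WT and 277, 576 and 291 in KO, and Cdhr1, a mitral cell gene, had 996, 662 and 946 in WT and 1184, 1498 and 1063 in KO. The bulb list was also higher in KO as a group without passing the test: 0 of 7 passed after adjustment, 4 had an unadjusted p under 0.05 with a higher mean in KO (Tbx21, Cdhr1, Doc2g and Calb2), beside 7.92% of all genes tested in either direction, and the median log2 difference was 0.48. For Tbx21, Cdhr1 and Doc2g all KO libraries lay above all WT libraries, while the groups overlapped for Calb2, Th, Sp8 and Eomes, and 14.4% of all genes tested had groups that did not overlap. S100a5, a gene of olfactory sensory neurons, had 77, 36 and 94 counts in WT and 77, 139 and 47 in KO. WT library 2, lowest for Omp, was also lowest for Eomes and Cdhr1. Whether the amount of olfactory bulb in a sample had a part in the Omp values was not tested.

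**Figure D3:**
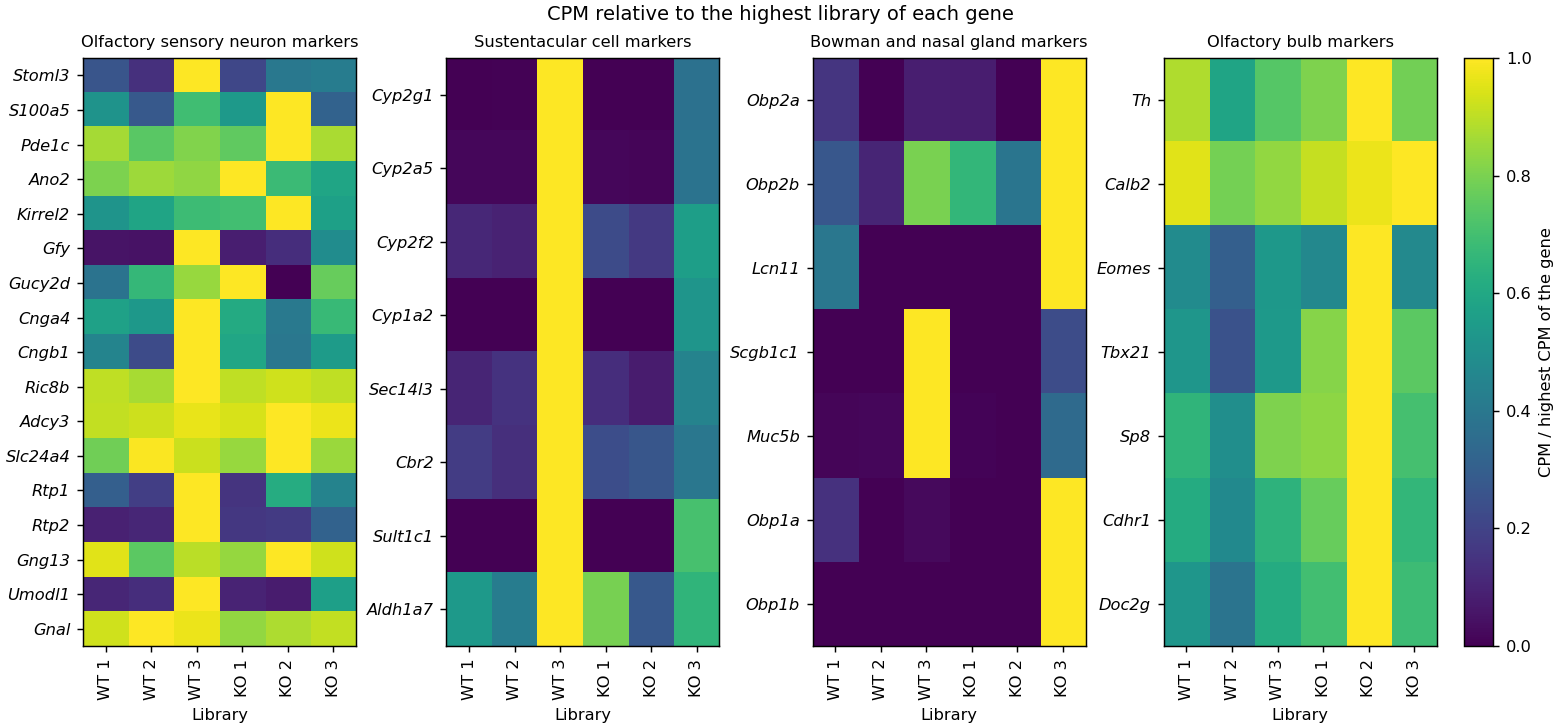
CPM of each marker gene with at least 10 counts in all, divided by its highest library (colour from 0, dark, to 1, yellow), in columns for the 6 libraries and panels for 4 marker lists. All 8 sustentacular genes peak in WT library 3, gland genes divide between WT library 3 and KO library 3, and 6 of 7 bulb markers peak in KO library 2.

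Odorant receptors gave a further reading, since an olfactory sensory neuron expresses a single receptor gene of a large family. Of 1407 annotated receptor genes, 419 had a read in WT library 3 and 306 in KO library 3, against 192 and 176 in WT libraries 1 and 2 and 165 and 172 in KO libraries 1 and 2. At equal depth, set by the smallest library, the expected numbers were 407.5 and 279.2 in WT library 3 and KO library 3 and 155.9 to 177.6 in the others. Receptor genes with reads in a single library numbered 170 for WT library 3, 65 for KO library 3 and 22 to 29 for each of the others. With at least 1 read as the criterion, WT library 3 and KO library 3 thus stood above the rest, while the number of all genes detected was alike (29963 to 31082). With at least 3 reads, WT library 3 still led with 95 receptor genes, but KO library 3 had 55, against 64 and 54 in WT libraries 1 and 2 and 45 and 46 in KO libraries 1 and 2.

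As groups, 262.3 ± 135.9 receptor genes were detected in WT and 214.3 ± 79.46 in KO (SD, n = 3), a difference smaller than either SD (two-sided p = 0.5 by exact permutation of the libraries, where 0.1 is the smallest value possible). Of the receptor counts, 4 genes, Olfr1564, Olfr287, Olfr691 and Olfr1372-ps1, held 4144, and these 4 summed to 747, 721 and 656 counts in WT and 696, 697 and 627 in KO. All other receptor genes summed to 710, 628 and 1046 in WT and 561, 583 and 835 in KO. The trace amine receptors, a further family of olfactory receptors, had 0 or 1 of 16 genes detected in 5 libraries and 5 in KO library 3.

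**Figure D4:**
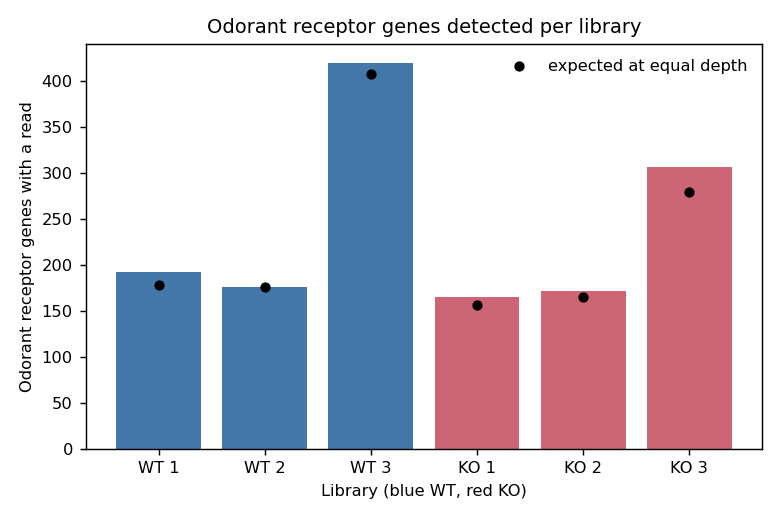
Number of odorant receptor genes with at least 1 read (bars, from 0) in each library, WT in blue and KO in red, with black points for the number expected if each library had the depth of the smallest. WT library 3 (419) and KO library 3 (306) stand above the other 4 (165 to 192).

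WT library 3 and KO library 3 were set side by side gene by gene, as a comparison of 2 libraries and not of genotypes. For sustentacular genes the ratio of WT library 3 to KO library 3 lay between 1.41 (Sult1c1, 0.769 to 2.63) and 2.67 (Cyp2g1, 2.12 to 3.37). The ratio was 2.59 for Cnga2 and 1.45 (1.24 to 1.69) for Omp. Over the list of other olfactory sensory neuron genes it ran from 0.928 for Pde1c (0.876 to 0.983) to 3.19 for Rtp2 (1.51 to 7.33), with Kirrel2, Ric8b, Slc24a4, Gnal, Adcy3 and Gng13 between 0.965 and 1.21. The ratios given above for Bpifb3 (10.5) and Bpifb4 (6.14) were higher, as a description of values that chose these genes, and the gland genes Muc5b and Scgb1c1 stood at 2.89 (2.04 to 4.15) and 4.32 (2.42 to 8.20). Bpifb9a, Bpifb9b and Obp1a went the opposite way, with KO library 3 at 32.9, 42.4 and 38.2 times WT library 3. The last rests on 1 count in WT library 3 and has an interval of 6.50 to 1546.

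**Figure D5:**
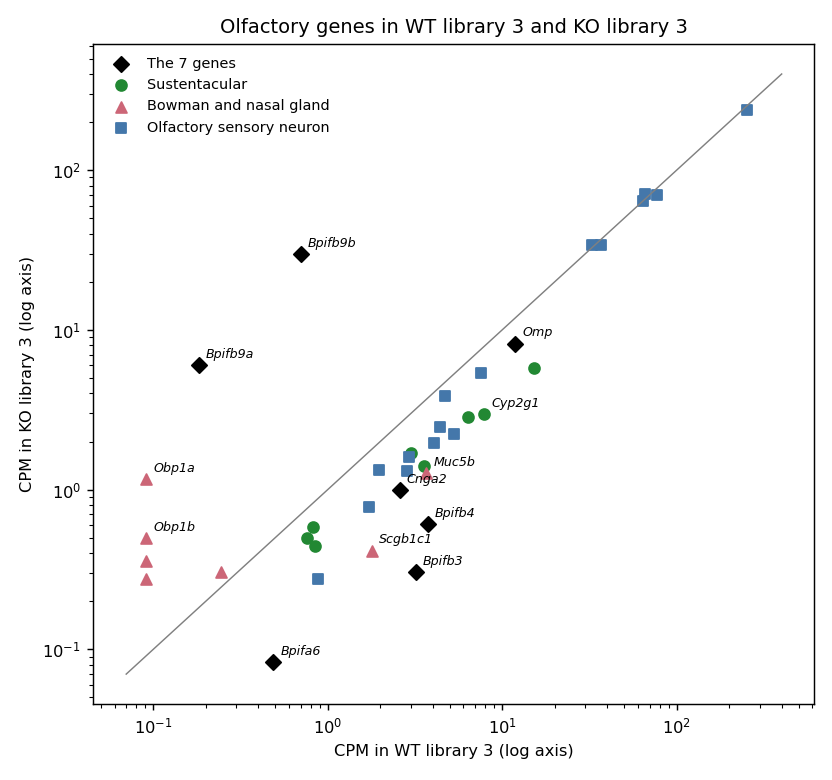
CPM in WT library 3 (horizontal log axis) and KO library 3 (vertical log axis) of the 7 genes and of markers of 3 olfactory cell types with at least 10 counts in both together, with values under 3 counts drawn at that floor and a grey line of equality. Most sustentacular and neuron genes lie below or on the line, Bpifb3, Bpifb4 and Bpifa6 farther below it, and Bpifb9a, Bpifb9b and Obp1a far above it.

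Tissues that adjoin the nose or the brain were read in the same way. Muscle markers were highest in WT library 1 for 7 of 8 genes, such as Myh4 at 115 counts against 11 to 28 elsewhere. Cartilage and bone markers were highest in neither WT library 3 nor, with 1 exception (Col2a1), KO library 3. Markers of basal and respiratory epithelium were scarce in all libraries, with summed levels of 1.78 to 2.92 CPM, Krt5 at 0 to 5 counts, Krt14 at 0 to 2 and Scgb1a1 at 0, but 2 of the 4 with at least 10 counts, Ltf and Reg3g, had WT library 3 and KO library 3 as their top pair. Ltf, the lactoferrin gene, had 19, 6 and 21 counts in WT and 14, 5 and 23 in KO, and Reg3g had 3 counts in WT library 3, 7 in KO library 3 and 0 elsewhere. Of the choroid plexus, meningeal and ependymal markers, 0 were highest in WT library 3, and 1 meningeal gene (Foxc1) and 2 ependymal genes (Foxj1 and Tmem212) were highest in KO library 3. Olfactory ensheathing glia genes, which other brain glia share, summed to 84.9 to 99.9 CPM. Gh, the growth hormone gene of the pituitary, had 30 counts in WT library 3 and 0 in the other 5, while Prl was at 0 in all, and 3 of 5 pituitary genes with at least 10 counts were highest in WT library 3. In bulk RNA, fewer cells of a type cannot be told apart from less RNA per cell. Whether nasal tissue was collected with the brains of WT library 3 and KO library 3 was not tested, and the labels do not describe the dissection.

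Genotype was tested over all genes, and 2 of 21237, or 0.00942%, had an adjusted p under 0.05 in edgeR's quasi-likelihood test (Trmt1l and Gm37893, a feature within Trmt1l). Among 52 tested genes of the mucosal, receptor and BPI family lists other than the 7, which leave out the olfactory bulb, 0 passed, and 0 passed in DESeq2. Without adjustment 3 of the 52 had a p under 0.05, 1 with a higher mean in KO (Olfr111) and 2 with a lower one (Gnal and Olfr658), beside 7.92% of all genes tested. The median log2 difference of the 52 was -0.11, against 0.00013 over all genes. Most mucosal genes could not be tested, since 4 of 10 sustentacular genes, 0 of 10 annotated gland genes and 20 of 1407 receptor genes passed the filter.

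Genes whose profile over the 6 libraries was most like the 7 were sought by Pearson correlation of log2(CPM + 0.1), over 2870 genes that varied at least 2-fold, as a description with n = 6 libraries. For the sum of Omp and Cnga2 the closest were 4921534A09Rik (0.991), Mfap5 (0.986), Stoml3 (0.976), Ihh (0.969) and mt-Tt (0.963), of which Stoml3 had more than 14 counts in any library. For the sum of the 5 BPI-fold genes the closest were Elf5 (0.997), Mmp14 (0.966), Nek2 (0.965), Mir497 (0.963) and Hist1h3h (0.951), whose libraries differed far less than those of the BPI-fold genes. Elf5, for example, had 12, 9 and 20 counts in WT and 11, 9 and 26 in KO. Each sum was weighted to its most abundant genes. Omp exceeded Cnga2 in every library, and in KO library 3 Bpifb9b stood at 29.7 CPM against 0.609 CPM for Bpifb4. The BPI-fold sum is thus not the profile of Bpifb3, Bpifb4 or Bpifa6, which were highest in WT library 3. With a pseudocount of 1 CPM, 1 of the 5 genes was kept for each profile, and with Spearman's correlation 4 of 5 were kept for Omp and Cnga2 and 1 of 5 for the BPI-fold genes.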

How the data were processed

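Long RNA (over 200 bp, TruSeq total RNA) of mouse brain was sequenced in 3 WT and 3 KO libraries. Per the submitters' processing notes, cutadapt 1.9.1 and STAR 2.7.0f were used, and the build is not given in the sources used here. The authors deposited whole-number read counts per gene in 3 columns (unstranded and each strand), not normalized. All 55450 gene IDs equal GENCODE M21 (GRCm38), the source of names and positions. The stranded column with 94.6% to 94.8% of stranded counts was used (rule: at least 80%). Rows of unmapped, multimapping, no-feature and ambiguous reads were left out.

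Genes were filtered (filterByExpr), TMM-scaled and tested with edgeR 4.0.16 in R 4.3.3, genotype alone, with Benjamini-Hochberg adjustment at 0.05, and the test was checked on simulated data. DESeq2 1.42.0 was an alternative. Intervals of ratios are exact (binomial, 95%, scipy 1.17.1) and cover counting error alone. The genes and lists were chosen with earlier results of these data known. The naming rule took the 7 genes, Trmt1l, up to 4 genes with the highest mean count per list, and the 5 most alike per profile; other genes named were chosen after their values were seen. Libraries of a group differed beyond sampling noise (chi-square per degree of freedom 4.08 to 8.69). The labels do not say that each library came from a separate animal, so p-values measure the spread between these samples. Results for 1 gene that set libraries apart are not reported here.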

Additional observations from a re-analysis of the deposited data

How the results depend on the processing

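The number of genes passing the genotype test was 2, and it was 298 without a filter on low counts, 26 in DESeq2's Wald test, 4 with the replicate block, and 2 to 5 when 1 library was left out at a time (5 without KO library 3). Without WT library 3 and KO library 3 together, an alternative chosen after seeing the data, 3 genes passed. In that edgeR fit 7 of 53 tested olfactory and BPI family genes outside the 7 had an unadjusted p under 0.05. Over all genes 1535 of 21329 did. Among olfactory and BPI family genes outside the 7, 0 passed under each alternative except the fit without a filter (37245 genes tested), where 7 did (Cyp2a5, Cyp2g1, Muc5b, Scgb1c1, Sec14l3, Obp1a and Obp1b). Each of these has most of its reads in WT library 3 and KO library 3 together. The fitted log2 differences of the 7 genes moved by more than the spread between libraries in 10 of 70 alternatives. Leaving out 1 library turned their sign for Bpifb3 (-3.05, and 5.14 without WT library 3), Bpifb4 (-2.54, and 0.49 without WT library 3), Bpifb9a (5.005, and -4.10 without KO library 3) and Bpifb9b (5.198, and -2.52 without KO library 3), beside Omp and Cnga2. The replicate block changed no call among the olfactory genes (0). Over all genes that passed the filter, deviations of same-numbered libraries correlated at 0.0454, -0.0379 and -0.0566. This correlation reflects the whole of those genes, and most mucosal genes were not among them. Whether WT library 3 and KO library 3 shared more than their number was not tested. In the unstranded column, which adds reads of the other strand, KO library 3 stood at 43.9 times the median of the other 5 for Bpifb9b and at 13.4 times for Bpifb9a, while in the stranded column those medians were at 3 counts or fewer. Depth limits Bpifa6 most, with 18 counts in all.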

Other observations

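Further genes, named after their values were seen, shared the library of Bpifb9a and Bpifb9b. Mup4, which encodes a major urinary protein of the lipocalin family, had 2, 0 and 1 counts in WT and 0, 0 and 45 in KO, in library order. Mup5, of the same family, had 8, 2 and 2 counts in WT and 3, 3 and 61 in KO. Gm14744 and 5430402E10Rik, both on the X chromosome near Obp1a and Obp1b, had 75 and 57 counts in KO library 3 and 0 to 5 in the other libraries.

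Other genes, also named after their values were seen, had reads mainly in both WT library 3 and KO library 3. Muc16, a membrane mucin, had 1, 1 and 62 counts in WT and 0, 0 and 40 in KO, and Aox2, an aldehyde oxidase gene, had 6, 1 and 107 in WT and 2, 2 and 65 in KO. The ratio of WT library 3 to KO library 3 was 1.70 for Muc16 (exact 95% interval 1.13 to 2.60). Chil6, a chitinase-like gene, had 26 and 21 counts in these libraries and 0 or 1 in the rest.

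KO library 3 also stood apart in glial genes. Gfap, an astrocyte gene, had 8962 counts there against 4115 to 4873 in the other 5 libraries. Gpnmb, Clec7a and Itgax, genes known from activated microglia, had 516, 103 and 126 counts there, against 83 to 139, 11 to 25 and 8 to 43 in the others.

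Reads on the strand opposite to Bpifb9a and Bpifb9b did not follow the genes. They numbered 18, 20 and 9 in WT and 11, 17 and 22 in KO for Bpifb9a, and 17, 28 and 19 in WT and 21, 20 and 23 in KO for Bpifb9b. No annotated gene overlaps either one.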
